A study of Mus musculus with 14 samples.

Results

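The 10 genes described here control de novo lipogenesis, the making of fatty acids from sugar, and were followed in the liver and kidney of mice kept on a normal or a high salt diet. They are Srebf1, Scap, Insig1, Insig2, Rnf145, Mlxipl, Nr1h3, Pparg, Thrsp and Mid1ip1. Members were found by gene symbol in the count tables, where they are 10 of 19660 liver genes and 10 of 20203 kidney genes. They were chosen by role with their liver counts under both diets already known, so differences that use those liver libraries, between diets or between tissues, are given as values only. All 10 passed the filter on low counts in each comparison.

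All mice in all 4 groups were males of 12 weeks that were transgenic for human angiotensinogen (-6A haplotype), so no group lacks the transgene. The groups were liver under normal diet and liver under high salt, with 4 libraries each, and kidney under normal diet and kidney under high salt, with 3 libraries each. The salt content, the length of feeding, the strain and the promoter length of the transgene are not given in the sources used here. Whether each library came from its own animal is not stated either, so p-values measure only the spread between these libraries. Liver columns of the high salt group are numbered 5 to 8 and are called HS5 to HS8, while all other libraries keep the numbers of their titles.

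SREBP1, the product of Srebf1, is made as a membrane protein of the endoplasmic reticulum, where SCAP holds it and carries it to the Golgi to be cleaved. INSIG1 and INSIG2 keep SCAP in the endoplasmic reticulum, and RNF145 is a sterol-responsive ubiquitin ligase there. Insulin, through SREBP1c, and glucose, through ChREBP (the product of Mlxipl), turn on the enzymes of fatty acid synthesis in liver. LXR alpha, encoded by Nr1h3, is an oxysterol receptor that drives transcription of Srebf1 in hepatocytes. PPAR gamma is the adipocyte lipid-storage receptor, and THRSP and MID1IP1 are related proteins that act with acetyl-CoA carboxylase.

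Promoter stretches of 5 members are shown because they hold a match to a motif named below, outside annotated exons. Binding of any regulator to these matches was not tested. The E-box of Scap and the DR4 matches of Insig2 lay in exons and are left out. Each stretch is from RefSeq on GRCm38.p6, runs 5′ to 3′ on the gene's strand and leaves out annotated exons. Capitals mark the matches: the E-box CACGTG, the sterol element TCACNCCAC, or a DR4 element (AGGTCA, 4 bases, AGGTCA, with up to 3 mismatches in the 12 letters), each searched on both strands in the 250 bases before a start. In Insig1, at chr5:28071250-28071362 on the plus strand, a DR4 match 115 bases before the start at 28071412 overlapped an E-box 101 bases before it.
Insig1: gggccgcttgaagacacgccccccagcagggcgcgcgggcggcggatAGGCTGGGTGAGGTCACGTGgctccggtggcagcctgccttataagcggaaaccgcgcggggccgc
Mlxipl has a sterol element 136 bases before its start at 135106891 (chr5:135106708-135106810, plus strand) and an E-box 98 bases before its start at 135089890 (chr5:135089745-135089844, plus strand).
Mlxipl sterol element: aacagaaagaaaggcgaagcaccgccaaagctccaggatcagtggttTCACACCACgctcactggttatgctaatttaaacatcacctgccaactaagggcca
Mlxipl E-box: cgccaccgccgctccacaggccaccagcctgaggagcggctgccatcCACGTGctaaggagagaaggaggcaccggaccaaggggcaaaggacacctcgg
Rnf145 has an E-box 230 bases before its start at 44518956 (chr11:44518706-44518778, plus strand) and a DR4 match 92 bases before its start at 44520289 (chr11:44520150-44520259, plus strand).
Rnf145 E-box: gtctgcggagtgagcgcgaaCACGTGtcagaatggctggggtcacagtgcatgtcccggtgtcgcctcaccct
Rnf145 DR4: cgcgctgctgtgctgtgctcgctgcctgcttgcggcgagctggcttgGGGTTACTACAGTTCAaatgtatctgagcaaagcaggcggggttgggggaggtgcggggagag
Srebf1 has a DR4 match 182 bases before its start at 60210471 (chr11:60210591-60210700, minus strand), and Mid1ip1 has a DR4 match 18 bases before its start at 10717365 (chrX:10717300-10717364, plus strand).
Srebf1 DR4: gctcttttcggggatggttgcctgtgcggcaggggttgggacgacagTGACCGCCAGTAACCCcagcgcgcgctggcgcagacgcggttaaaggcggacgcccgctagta
Mid1ip1 DR4: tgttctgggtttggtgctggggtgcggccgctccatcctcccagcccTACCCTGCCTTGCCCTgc

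The same search over 32851 RefSeq promoters found the E-box in 6.02%, the sterol element in 1.05% and the DR4 element in 18.5%. The members have 21 promoters in that table, of which 4 held the E-box, 1 the sterol element and 5 the DR4 element. The CCAAT box, letters CCAAT, stood in 8 of the 21 and in 33.8% of all promoters. A GC box, letters GGGCGG, stood in 12 of the 21 and in 32.7% of all promoters. These are letter matches only. The DR4 search allows mismatches and is met by many promoters.

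Liver libraries held 37267778 to 51487382 counts and kidney libraries 16046094 to 22004927. Mitochondrial transcripts took 2.30% and 2.06% of counts in normal diet liver libraries 1 and 2 but 29.6% and 18.7% in libraries 3 and 4, and 11.3 to 19.2% under high salt. HS5 and HS6 differed by a chi-square of 1.59 per gene, against 9.85 to 62.7 in the other same-diet liver pairs, so they may be 1 sample, and the liver differences of the members are also given with their counts summed. The summed level of 5 hepatocyte markers was 49169 to 76839 CPM (counts scaled to a common library total) under normal diet and 87460 to 105744 CPM under high salt, without overlap. That sum was carried by Alb, at 32441 to 50637 CPM and 67824 to 85226 CPM. Of the 5 markers 2 were higher and 3 lower under high salt, with a median log2 difference of -0.15 and 0 called by edgeR. Neutrophil markers summed to 50.2 CPM in normal diet library 4 and to at most 1.07 CPM in the other normal diet libraries. In kidney, normal diet library 1 stood apart from the other 2.

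In liver, 7 members were higher under high salt and 3, Insig1, Insig2 and Nr1h3, were lower. CPM values below use TMM-scaled library sizes within the tissue, and differences are log2 fold changes of high salt over normal diet from edgeR with their standard errors (SE). The median difference of the 10 members was 0.70, against -0.023 over the 15130 genes tested. At an adjusted p under 0.05 edgeR called 1 member, Rnf145, where 1.00% of all genes were called. The members were listed from this comparison, so no support is taken from that count. In bulk tissue, fewer cells of a type and less RNA per cell cannot be told apart.

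**Figure D1:**
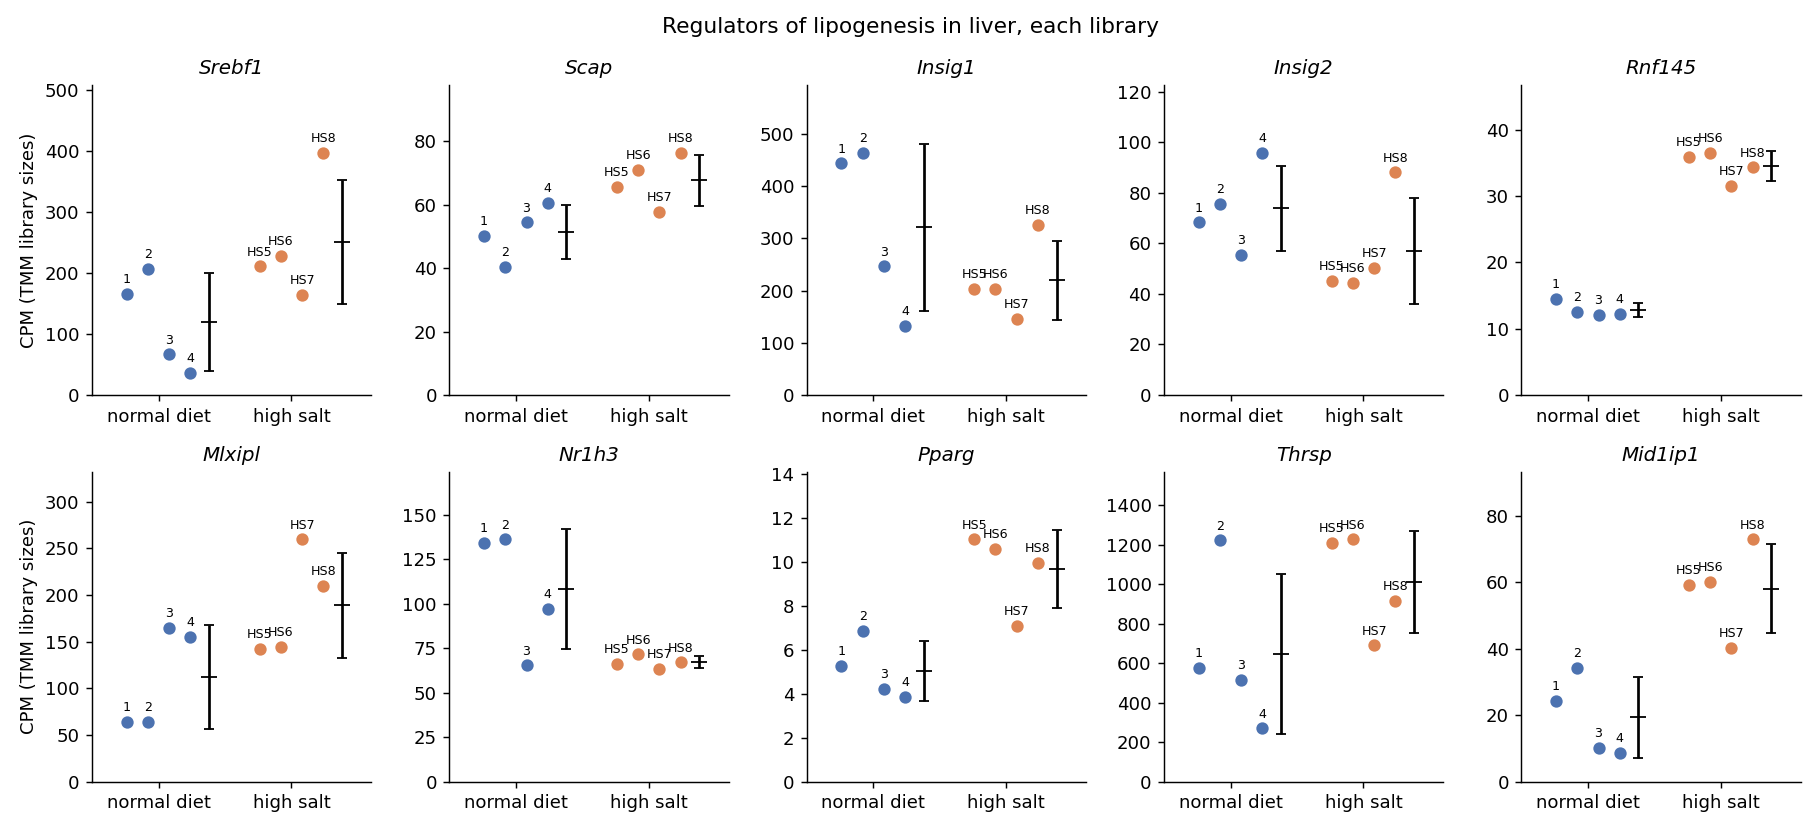
CPM (vertical axis, TMM library sizes) of the 10 regulators in each liver library by diet, with points for libraries and bars for the group mean and SD (n = 4). Rnf145, Mid1ip1 and Pparg have every high salt library above every normal diet library, and normal diet libraries 1 and 2 sit apart from 3 and 4 in Srebf1, Insig1, Mlxipl and Mid1ip1.

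Srebf1 lies at chr11:60199089-60222581 on the minus strand (mm10). Its normal diet libraries 1 to 4 held 166, 207, 66.4 and 36.7 CPM, and high salt libraries HS5 to HS8 held 210.5, 228, 164 and 397 CPM. Libraries 1 and 2 were at the level of the high salt group and libraries 3 and 4 below it, so the groups overlapped through HS7. Means were 119 ± 80.6 CPM under normal diet and 250 ± 101.7 CPM under high salt (SD, n = 4 each), a difference of 1.07 (SE 0.50). Leaving out normal diet libraries 1 and 2, where 0.327% of all genes were called, gave 2.28 (SE 0.42). That fit keeps only the normal diet libraries with the lower Srebf1 values. The opposite fit, without libraries 3 and 4 together, was not run for any member. Summing HS5 and HS6, where 0.0779% of all genes were called, gave 1.12 (SE 0.56). Srebf1 shares exon bases with Rai1 on the other strand, which differed by 0.21 (SE 0.31), and the strand setting of the counting is not given.

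Scap, at chr9:110333288-110384950 on the plus strand, encodes the SREBP escort protein. It held 50.2, 40.5, 54.4 and 60.7 CPM under normal diet and 65.6, 71.0, 57.8 and 76.4 CPM under high salt. Only HS7 fell within the normal diet range. The difference was 0.40 (SE 0.16), the smallest of the 7 positive ones, and it was 0.24 without normal diet libraries 1 and 2. Scap shares exon bases with 5830462I19Rik on the other strand, which differed by 0.81 (SE 0.29).

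Insig1, at chr5:28071363-28078662 on the plus strand, is both a brake on SREBP processing and an SREBP target gene. Normal diet libraries held 444, 464, 246 and 132 CPM and high salt libraries 202, 202, 146 and 327 CPM. The high values were again libraries 1 and 2, and the groups overlapped widely. Its difference of -0.55 (SE 0.39) turned to 0.21 without libraries 1 and 2, and was -0.33 without library 2 alone. Insig2, at chr1:121304353-121332589 on the minus strand, encodes the second INSIG protein and held 68.2, 75.6, 55.5 and 95.8 CPM under normal diet. Its high salt values were 45.3, 44.3, 50.3 and 88.1 CPM, below all normal diet libraries except for HS8. The Insig2 difference was -0.37 (SE 0.26), with -0.66 when HS8 was left out and -0.23 when normal diet library 4 was left out.

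Rnf145, at chr11:44518964-44565520 on the plus strand, gave the tightest separation of the diets. Normal diet libraries held 14.5, 12.5, 12.1 and 12.3 CPM and high salt libraries 36.0, 36.6, 31.5 and 34.4 CPM. Every high salt library was above every normal diet library, and the split between libraries 1 and 2 and libraries 3 and 4 seen in Srebf1 was small here. Means were 12.8 ± 1.10 and 34.6 ± 2.26 CPM (SD, n = 4 each), a difference of 1.43 (SE 0.13). The value was 1.41 (SE 0.16) with HS5 and HS6 summed and 1.51 (SE 0.14) without normal diet libraries 1 and 2. Its relative Rnf139, also a ligase of the endoplasmic reticulum, had 2.71 to 5.93 times the per-kilobase level of Rnf145 under normal diet and 1.33 to 1.83 times under high salt.

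Mlxipl, at chr5:135089890-135138382 on the plus strand, encodes the glucose-responsive factor ChREBP. It held 63.8, 64.0, 165 and 155.5 CPM under normal diet and 142, 144, 259 and 209.7 CPM under high salt. Here normal diet libraries 1 and 2 were low and libraries 3 and 4 within the high salt range, the opposite order to Srebf1. The difference was 0.75 (SE 0.36) over all libraries and 0.24 without libraries 1 and 2. Per kilobase, the ratio of Srebf1 to Mlxipl was 2.56 and 3.18 in libraries 1 and 2 of the normal diet but 0.396 and 0.232 in libraries 3 and 4. High salt libraries lay between those pairs, at 0.621 to 1.86.

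Nr1h3, at chr2:91184061-91202834 on the minus strand, held 134, 136, 65.4 and 97.1 CPM under normal diet. On high salt it held 66.3, 71.6, 63.4 and 67.03 CPM, a narrow range around the value of normal diet library 3. The other 3 normal diet libraries were above all high salt libraries. Its difference was -0.69 (SE 0.23) and shrank to -0.27 without libraries 1 and 2. Per kilobase, Nr1h3 stood at 7.46 to 16.9 times its related gene Nr1h2 (LXR beta) under normal diet and at 4.94 to 7.01 times under high salt.

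Pparg, at chr6:115360951-115490399 on the plus strand, was scarce in liver. It held 5.25, 6.87, 4.21 and 3.84 CPM under normal diet and 11.02, 10.6, 7.09 and 9.96 CPM under high salt. No high salt library reached down to the normal diet range, and HS7 came closest to it. The difference was 0.94 (SE 0.23), and 1.26 without normal diet libraries 1 and 2. Markers of stellate cells and fibroblasts, which also express Pparg, were higher under high salt too. Their sum over 5 genes was 65.4 to 124 CPM under normal diet and 133 to 155 CPM under high salt. Of the 5 genes 5 were higher and 0 were called by edgeR. Dcn carried most of that sum, at 41.4 to 80.3 CPM and 90.2 to 94.9 CPM. Within the normal diet, library 3 was highest in the sum but not in Pparg. The part of these markers' cells in the Pparg difference was not tested. Macrophage markers, summed over 6 genes, ranged from 144 to 255 CPM under normal diet and from 90.4 to 179 CPM under high salt, with 6 of 6 genes lower and 0 called.

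The summed adipocyte markers were low in liver, although Cfd stood out in HS8. Of the 8 genes on that list, 3 were measured in the liver table, and the list summed to 4.998 to 11.01 CPM under normal diet and 5.78 to 11.5 CPM under high salt. Adipoq, Plin1, Lep, Retn and Ucp1 gave no liver value.

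Thrsp, at chr7:97412938-97417730 on the minus strand, encodes Spot 14, a nutrient- and thyroid hormone-responsive protein. It was the most abundant member, at 576, 1222, 515 and 270 CPM under normal diet and 1209, 1226, 690.0 and 916 CPM under high salt. Normal diet library 2 reached the top of the high salt range, and the other 3 lay below that range. Means were 646 ± 406 and 1010.4 ± 257 CPM (SD, n = 4 each), a difference of 0.65 (SE 0.41). It was 1.15 without normal diet library 2, 0.38 without library 4 and 1.36 without libraries 1 and 2.

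Mid1ip1, the related gene at chrX:10715013-10719690 on the plus strand, held 24.3, 34.3, 10.2 and 8.53 CPM under normal diet and 59.1, 60.0, 40.2 and 72.9 CPM under high salt. The diets did not overlap, although libraries 1 and 2 were again above libraries 3 and 4. Its difference of 1.58 (SE 0.42) was the largest of the 10, and it was 2.63 (SE 0.27) without libraries 1 and 2. The per-kilobase ratio of Thrsp to Mid1ip1 was 23.0 to 49.0 under normal diet and 12.2 to 19.9 under high salt. Pparg, Rnf145 and Mid1ip1 were the 3 members of 10 with every high salt library above every normal diet library, a pattern that 6.44% of all liver genes showed.

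Summing HS5 and HS6 left the sign of all 10 members as it was. Among the regulators of SREBP processing, Scap then differed by 0.39, Insig1 by -0.52 and Insig2 by -0.27. Mlxipl differed by 0.86, Nr1h3 by -0.71 and Pparg by 0.88. Thrsp and Mid1ip1 differed by 0.54 and 1.57.

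**Figure D2:**
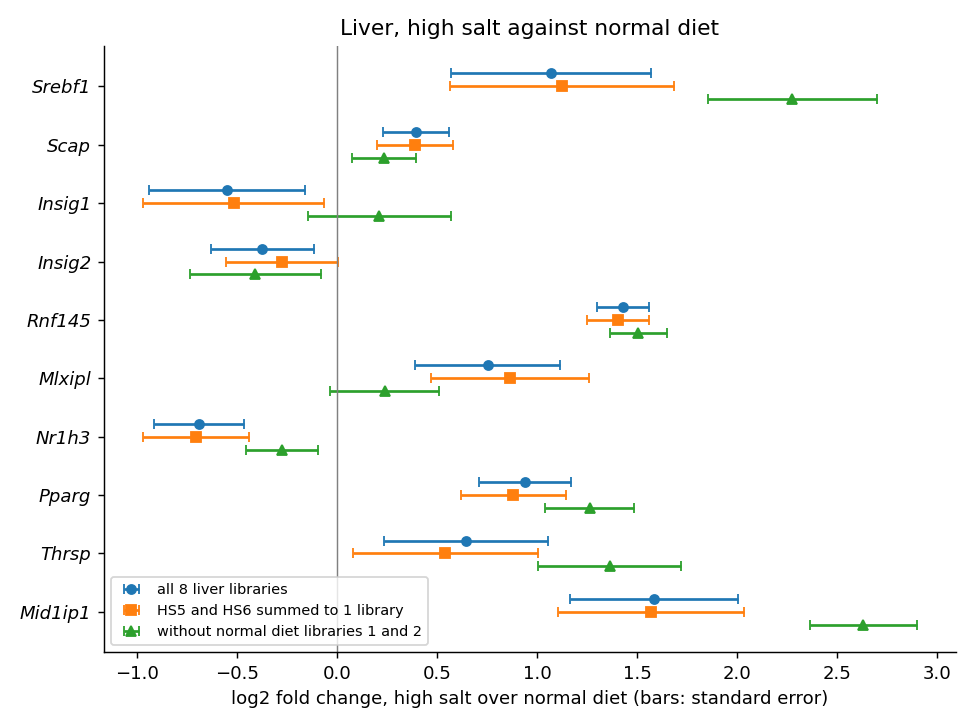
Log2 fold change of high salt over normal diet in liver (horizontal axis, bars: standard error) for the 10 regulators with all libraries, with HS5 and HS6 summed, and without normal diet libraries 1 and 2. Rnf145 keeps a value of 1.41 to 1.51 throughout, whereas Srebf1 goes from 1.07 to 2.28 and Insig1 from -0.55 to 0.21 when libraries 1 and 2 are left out.

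Ratios between members within a library do not depend on library size. The ratio of Srebf1 to Insig1, per kilobase, was 0.206, 0.244, 0.148 and 0.152 in normal diet liver libraries 1 to 4. On high salt it was 0.571, 0.620, 0.616 and 0.667. All 4 normal diet libraries lay together at this ratio, libraries 1 and 2 included, and all high salt libraries were above them. The means were 0.188 ± 0.0461 and 0.618 ± 0.0393 (SD, n = 4 each). In kidney the same ratio was 0.109 ± 0.0465 under normal diet and 0.103 ± 0.0428 under high salt (SD, n = 3 each), with overlap. It is 1 of 9 pairs of members and related genes that were compared, and it rests on the liver values that chose the members, so it is given as a description.

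By contrast, the ratio of Insig1 to Insig2 spread from 1.55 to 7.30 over the normal diet liver libraries and from 3.26 to 5.13 under high salt. In kidney the ratio was lower, at 0.846 ± 0.152 under normal diet and 0.881 ± 0.0988 under high salt (SD, n = 3 each), with 5 of 6 libraries below 1 and normal diet library 2 at 1.02. Against Srebf2, which encodes the cholesterol-directed SREBP2, Srebf1 stood at 1.35 to 15.6 times the per-kilobase level in normal diet liver and at 9.89 to 18.1 times under high salt. In kidney Srebf1 stood below Srebf2, at ratios of 0.332 ± 0.0174 and 0.292 ± 0.0898.

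Pathway genes around the members were counted from 9 lists of 107 genes in all, of which 103 were tested in liver. Over these 103 genes the median liver difference was 0.32, with 72 higher under high salt, and edgeR called 11 higher and 1 lower, against 0.595% and 0.410% of all genes. With HS5 and HS6 summed, 4 were called higher and 0 lower (Acly, Fasn, Elovl5 and Pklr), and without normal diet libraries 1 and 2 again 4 higher and 0 lower (Acaca, Acly, Elovl5 and Pklr). The lists were written with earlier results of these data known and are described only. SREBP1 target enzymes of fatty acid synthesis were higher in 14 of 14 cases, with 8 called and a median of 1.89. All 14 were also higher with HS5 and HS6 summed (3 called, median 1.82) and without normal diet libraries 1 and 2 (3 called, median 1.65). Fasn, the fatty acid synthase, went from 91.6 ± 35.3 to 868.2 ± 333 CPM (difference 3.24), and Scd1, the stearoyl-CoA desaturase, differed by 3.01. Acly, which makes cytosolic acetyl-CoA, differed by 1.92. Pnpla3 had the largest value, 4.26, from 0.057 ± 0.076 CPM under normal diet.

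Of the ChREBP partners and targets, 10 of 12 were higher with a median of 0.59, and 2 were called: Pklr, the liver pyruvate kinase (2.23), and Tkfc, a fructose-handling kinase (1.15). LXR targets were higher in 7 of 10 cases with a median of 0.45, and 1 was called, the phospholipid transfer protein gene Pltp (2.93). Without normal diet libraries 1 and 2 the LXR target median was 0.098 with 0 called. The median of the ChREBP list was then 0.71 with 1 called. SREBP2 targets of cholesterol synthesis had a median of -0.077, with 8 higher, 8 lower and 0 called, and Idi1, Cyp51 and Mvk differed by -0.66, -0.71 and -0.92. The list of SREBP processing and cholesterol-sensing partners, which includes Srebf2 itself, had 6 higher and 8 lower with 0 called. PPARG targets had 4 higher and 3 lower of the 7 tested, with 0 called and a median of 0.27. Without normal diet libraries 1 and 2 they had 2 higher and 5 lower, with a median of -0.14. Nuclear receptor partners had 14 of 16 higher with 0 called (median 0.50), and insulin signalling genes 8 of 11 with 0 called (median 0.32). Without those libraries the medians were 0.24 for nuclear receptor partners and 0.11 for insulin signalling genes. The gene called lower was Dio1 (-1.59), the thyroid hormone deiodinase. It was on the list set up around THRSP and MID1IP1, with Mid1 and Mid2, and binding to either protein was not tested.

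In kidney, no member was called between the diets, and the libraries of the diets overlapped for 9 of the 10. The edgeR test called 0 of 10 members and 0% of 15847 genes at an adjusted p under 0.05, and 2.01% of all genes and 0 members had an unadjusted p under 0.05. DESeq2 called 11 genes and 0 members. Of the members 5 were higher and 5 lower, with a median difference of -0.026. The adjusted edgeR p was 0.9996 for each member.

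**Figure D3:**
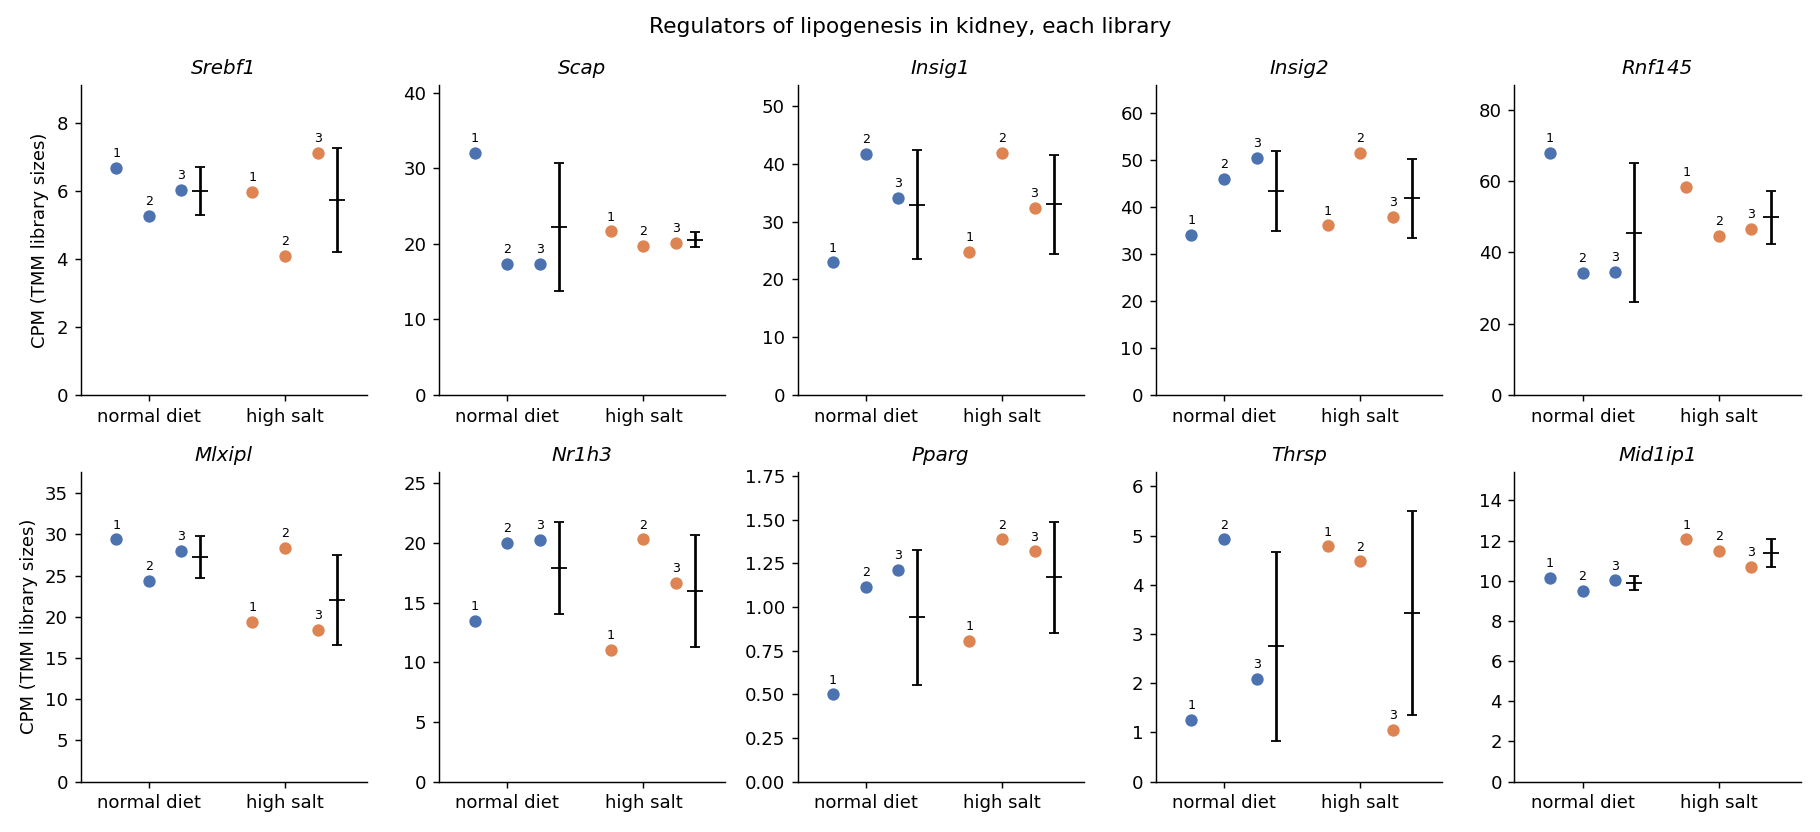
CPM (vertical axis, TMM library sizes) of the 10 regulators in each kidney library by diet, with points for libraries and bars for the mean and SD (n = 3). The diets overlap for every member except Mid1ip1, and normal diet library 1 is apart from libraries 2 and 3 in Scap and Rnf145.

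Kidney Srebf1 held 6.69, 5.27 and 6.05 CPM under normal diet and 5.98, 4.10 and 7.14 CPM under high salt, a difference of -0.062 (SE 0.26). The high salt range enclosed the normal diet range. Mlxipl held 29.4, 24.4 and 28.0 CPM under normal diet and 19.4, 28.4 and 18.4 CPM under high salt, with high salt library 2 inside the normal diet range (-0.31, SE 0.22). Mid1ip1 was the only member without overlap, at 10.1, 9.49 and 10.02 CPM against 12.1, 11.5 and 10.7 CPM (0.21, SE 0.18), and 3.85% of all kidney genes had every high salt library higher.

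Rnf145, the member that separated the liver diets most tightly, held 67.9, 34.3 and 34.5 CPM in normal diet kidney and 58.4, 44.6 and 46.6 CPM under high salt. Its normal diet range enclosed the high salt values because of library 1, and the difference was 0.13 (SE 0.30). Scap had the same shape, with 32.1 CPM in normal diet library 1 and 17.3 to 21.7 CPM in the other 5 libraries (-0.12, SE 0.27). Insig1 ranged from 22.9 to 41.7 CPM under normal diet and from 24.7 to 41.9 CPM under high salt (0.0033, SE 0.28). Insig2 and Nr1h3 differed by -0.055 (SE 0.23) and -0.16 (SE 0.28), with overlap in each. Without normal diet library 1, Rnf145 differed by 0.54 and Scap by 0.24, and 0 members were called by edgeR. Pparg had 10 to 29 counts per kidney library, 0.500 to 1.39 CPM, and differed by 0.31 (SE 0.46), with overlap.

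Thrsp was the most variable member in kidney, at 1.25, 4.92 and 2.08 CPM under normal diet and 4.78, 4.47 and 1.05 CPM under high salt (0.32, SE 0.64). High values came from 1 normal diet library and 2 high salt libraries. Of the 8 adipocyte markers, 6 were higher in each of these 3 libraries than in the other 3. The exceptions were Fabp4, the most abundant, at 85.01 CPM in normal diet library 3 and 84.6 CPM in high salt library 2, and Ucp1, at 0 in all normal diet libraries. Lep and Cidea separated near the floor, with lowest values of 0.176 and 0.117 CPM in the 3 libraries high in Thrsp. Their highest values in the other 3 were 0.0999 and 0.0484 CPM. The 3 libraries were picked by Thrsp, and the share of all genes with the same split was not counted. Adipoq, the fat hormone adiponectin, held 0.899, 5.15 and 0.484 CPM under normal diet and 4.15, 1.89 and 0.364 CPM under high salt. The serine protease adipsin gene Cfd held 1.35, 5.68 and 0.968 CPM and 5.54, 2.77 and 0.364 CPM. The sum of the 8 genes was 37.5 to 124 CPM under normal diet and 64.2 to 103 CPM under high salt. Their part in the kidney Thrsp values was not tested.

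**Figure D4:**
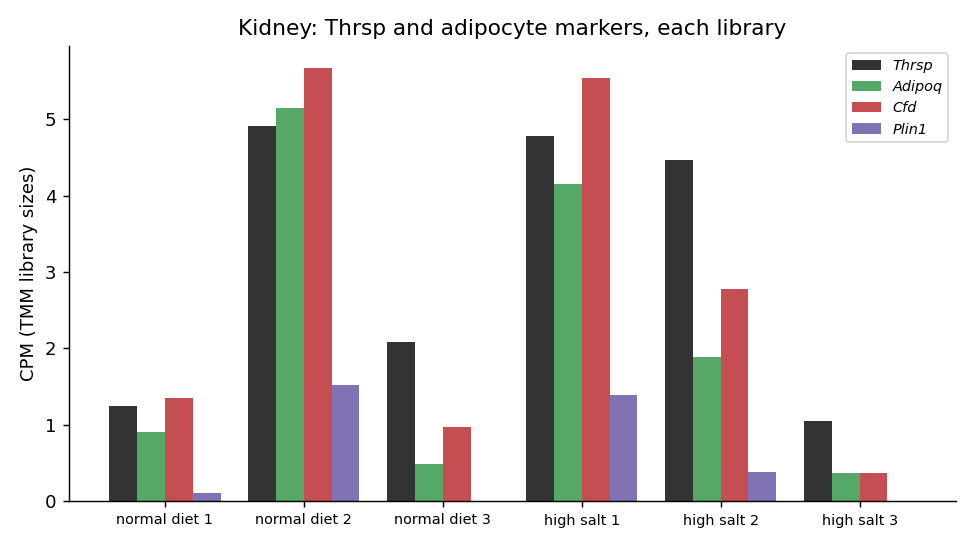
CPM (vertical axis, TMM library sizes) of Thrsp and the adipocyte genes Adipoq, Cfd and Plin1 in each of the 6 kidney libraries, 1 bar per gene. The second normal diet library and the high salt libraries 1 and 2 have the highest Thrsp (4.47 to 4.92) and also the highest values of the 3 adipocyte genes drawn. Fabp4 and Ucp1, which did not separate these libraries, are not drawn.

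Of the pathway genes, 96 were tested for diet in kidney, and 0 were called by edgeR. They had a median difference of 0.036, with 56 higher. The liver and kidney diet differences were also compared in 1 fit as an interaction, which holds the liver contrast used to list the members and is given as values. Rnf145 differed between the tissues by 1.30 (SE 0.32), Mid1ip1 by 1.36 (SE 0.56), Mlxipl by 1.08 (SE 0.46) and Srebf1 by 1.11 (SE 0.69), each more positive in liver. The interaction called 0 of 10 members and 0% of 16633 genes with edgeR at an adjusted p under 0.05, with 10.1% of all genes at an unadjusted p under 0.05, and DESeq2 called 148 genes and 0 members.

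Between the tissues the members stood far apart. On the normal diet edgeR called 9 members higher in liver and 1, Rnf145, higher in kidney, where 58.5% of the 15688 genes tested were called, 30.0% higher in liver and 28.5% higher in kidney. A liver-to-kidney difference is thus common among all genes. The normal diet liver libraries are those of the diet comparison, so nothing is read from the members' count. Levels in this comparison were scaled over all 14 libraries.

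Thrsp had the largest difference, with 305 to 1510.5 CPM in normal diet liver and 1.02 to 4.01 CPM in normal diet kidney. The log2 difference was 8.43 (SE 0.81). Srebf1 held 41.6 to 256 CPM in liver and 4.29 to 5.44 CPM in kidney, a difference of 4.84 (SE 0.63). For both genes every liver library was above every kidney library. Insig1 followed at 3.84 (SE 0.51) and Nr1h3 at 3.14 (SE 0.34).

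Pparg was 2.96 higher in liver on the log2 scale (SE 0.42), at 4.35 to 8.49 CPM against 0.406 to 0.990 CPM. Mlxipl differed by 2.57 (SE 0.41) and Scap by 1.74 (SE 0.30). The smallest positive differences were those of Mid1ip1, at 1.51 (SE 0.47), and Insig2, at 1.31 (SE 0.26). Mid1ip1 was no longer called without kidney library 2 (1.47) or library 3 (1.52).

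Rnf145 went the other way, at 13.9 to 17.8 CPM in normal diet liver and 27.9 to 55.3 CPM in normal diet kidney. The difference was -1.30 (SE 0.29), with all 3 kidney libraries above all 4 liver libraries, and -0.84 without kidney library 1, where it was still called. Among high salt libraries Rnf145 held 36.5 to 44.0 CPM in liver and 36.5 to 47.6 CPM in kidney, and the difference was 0.0069 (SE 0.15). The other 9 members were called higher in liver under high salt too, where 70.8% of 16184 genes were called and 37.1% were called higher in liver. Srebf1 then differed by 5.97 (SE 0.39), Mlxipl by 3.63 (SE 0.28) and Mid1ip1 by 2.88 (SE 0.22).

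**Figure D5:**
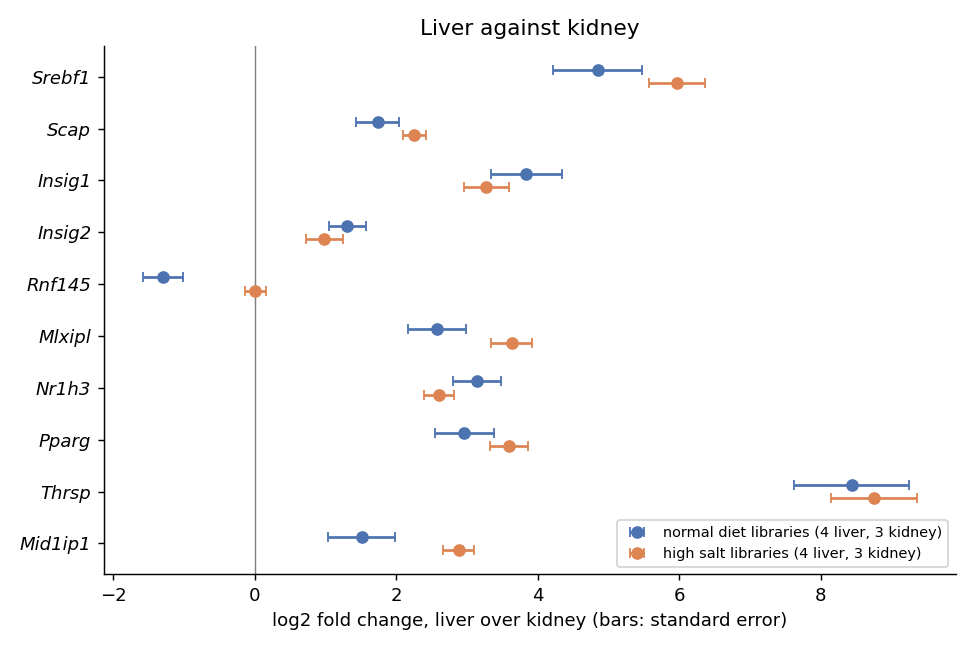
Log2 fold change of liver over kidney (horizontal axis, bars: standard error) of the 10 regulators, for normal diet and for high salt libraries (4 liver and 3 kidney each). Only Rnf145 lies left of 0 under normal diet, at -1.30, and it sits at 0.0069 under high salt.

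Levels were ordered between genes after division by the merged length of all annotated exons. These CPM were scaled within each tissue, so the liver and kidney values per kilobase are not on the same scale. In normal diet liver Thrsp led with 295 CPM per kilobase, followed by Insig1 with 104 and Nr1h3 with 43.1. Insig2 (21.3), Srebf1 (21.1) and Mlxipl (20.2) came next, with SDs of 4.86, 14.3 and 10.1 that exceed their differences. Mid1ip1 (9.09) and Scap (6.91) followed, and Pparg (1.71) and Rnf145 (1.65) were last. Every pair of neighbours in this order overlapped between libraries except Scap and Pparg. On high salt Srebf1 (44.4), at 29.1 to 70.4, lay above the Nr1h3 range of 25.2 to 28.5, whereas Mlxipl (34.1), at 25.6 to 46.8, overlapped it.

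The kidney order was another one. Insig2 (12.5 CPM per kilobase), Insig1 (10.6) and Nr1h3 (7.11) led in normal diet kidney, followed by Rnf145 (5.85), Mlxipl (4.92), Mid1ip1 (4.64) and Scap (2.99). Thrsp (1.26), Srebf1 (1.07) and Pparg (0.319) were at the bottom. Neighbours overlapped between libraries except Mid1ip1 and Scap, Scap and Thrsp, and Srebf1 and Pparg, and Thrsp and Srebf1 differed by less than the Thrsp SD of 0.879. Hepatocyte markers summed to 825 to 1296 CPM in normal diet kidney, far under the liver sums. That kidney sum was carried by Cyp2e1, at 787 to 1224 CPM, whereas Alb held 2.70 to 35.7 CPM. Among the pathway genes, edgeR called 48 of 97 higher in liver and 17 of 97 higher in kidney under normal diet. Of all 15688 genes tested, 30.0% were called higher in liver and 28.5% higher in kidney. Fasn was 3.56 higher in liver (SE 0.37) and Me1, the malic enzyme, 2.41 higher in kidney (log2 -2.41, SE 0.34).

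Genes with the most similar profile were taken as those with the smallest root mean square difference in centred log2 CPM. Over all 14 libraries Elovl2 (0.479), Angptl8 (0.556) and Acaa1b (0.611) lay nearest Srebf1 among 13379 genes. Within the 8 liver libraries the nearest to Srebf1 of 12384 genes was another member, Mid1ip1 (0.335), ahead of Dixdc1 (0.369) and Prss8 (0.424). For Mlxipl the nearest were Camk1d, Zfhx4 and Shfl over 14 libraries (0.289 to 0.339) and Peg3, Setd1a and Scarf1 in liver (0.137 to 0.204). Nr1h3 lay nearest Mgmt, Selenoo and Ccs over 14 libraries (0.140 to 0.238) and Eif2d, Ninj1 and Bet1l in liver (0.0582 to 0.0634). These distances share the libraries and their scaling and are a description.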

How the data were processed

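RNA of liver and kidney was made into SMARTer mRNA libraries, per the labels. The submitters' processing notes name Partek 7.0, STAR 2.5.3a, DESeq2 and mm10, without saying which step each served. The authors deposited expected counts per gene, of which 58.2% of liver and 63.8% of kidney values were whole numbers, per the file headers made by expectation maximisation. A second deposited table per tissue holds a normalized signal for each gene, by a scaling not given in the sources used here. No per-sample column was left unused.

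Rounded expected counts went into the quasi-likelihood test of edgeR 4.0.16 (R 4.3.3), after TMM scaling and the filterByExpr filter, by diet within each tissue, and by tissue and interaction over the 17600 genes the tables share. Adjusted p-values are Benjamini-Hochberg over all genes tested, with 0.05 as threshold. The diet and tissue fits were also run on simulated counts with known changes. Those libraries were drawn independently, without a pair like HS5 and HS6 or a split like that among normal diet liver libraries. That run therefore does not bear on these features of the liver data. Alternatives were DESeq2 1.42.0, RLE or upper quartile scaling, other filters, removal of mitochondrial genes, limma 3.58.1 on the deposited signal with pseudocounts of 1 and 0.1, all 14 libraries in 1 fit, the replicate block, HS5 and HS6 summed, and libraries left out.

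The members, gene lists, tests and alternatives were chosen with earlier results of these data known. Pathway genes were named by a rule: per list, up to 6 called genes with the largest changes, or the 3 with the smallest p-values where fewer than 3 were called. Nearest genes had a mean of at least 1 CPM, with a pseudocount of 1 on the log2 scale. The labels name no molecular identifiers, and reads can be copies of the same molecule.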

Additional observations from a re-analysis of the deposited data

Results flagged for a closer look

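In 20 groups of 4 liver libraries, 1 per member and diet, 2 had a library at a distance from the other 3 beyond the 95% critical value of Dixon's gap test. Chance gives about 1 such group in 20. Insig2 under high salt was 88.1 CPM in HS8, against 44.3 to 50.3 CPM in the other 3 libraries, a gap of 0.862 of the whole range. Rnf145 under normal diet was 14.5 CPM in library 1, against 12.1 to 12.5 CPM in the other 3, a gap of 0.844 of the range. That Rnf145 value is still below the lowest high salt library, at 31.5 CPM.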

How the results depend on the processing

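In liver, 152 genes were called with all libraries, 1122 with DESeq2, 260 with all 14 libraries in 1 fit, 12 with HS5 and HS6 summed and 52 without normal diet libraries 1 and 2. Leaving out each library in turn gave 12 to 765 calls (39 without normal diet library 1, 41 without 2, 765 without 3, 409 without 4, 18 without HS5, 12 without HS6 and 32 without HS8). Of the members 1 was called, Rnf145, which was called under every alternative run. The count was 3 with DESeq2 (Mid1ip1 and Pparg added), 2 without libraries 1 and 2, 2 with all 14 libraries and 1 to 2 with a library left out. The members were listed from this comparison and the alternatives reuse its libraries, so no support is taken from these calls. Insig1 turned from -0.55 to 0.21 without libraries 1 and 2. The causes were not tested.

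In kidney, DESeq2 called 11 genes. Kidney Insig1 turned to -0.0012 with RLE scaling and with DESeq2. With each kidney library left out in turn, the diet differences changed sign for 8 members: Srebf1 (-0.25 to 0.13), Thrsp (-0.025 to 1.03), Insig1 (-0.20 to 0.21), Insig2 (-0.23 to 0.065), Scap (-0.27 to 0.24), Nr1h3 (-0.37 to 0.049), Pparg (-0.00077 to 0.54) and Rnf145 (-0.040 to 0.54). None of these was called.

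The interaction called 148 genes with DESeq2, 2 with at least 10 counts in every library, 1 without normal diet libraries 1 and 2, and 0 to 7 with a library left out (1 without normal diet liver library 2, 3 without 4 and 7 without HS7). Members called numbered 1 without libraries 1 and 2, Mid1ip1 (2.49), and Insig1 turned to 0.27 there. Thrsp ranged from -0.40 to 0.85 with a library left out, and was -0.40 without kidney normal diet library 2 and -0.13 without kidney high salt library 3. Between the tissues Rnf145 turned from -1.30 to 0.0069 among high salt libraries. Upper quartile scaling moved the median tissue difference of all genes from 0.073 to -0.22, and all 10 members kept their direction and call.

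Replicate numbers were not used as pairs in the main fits. Same-number correlations of deviations were 0.53, 0.51 and -0.15 in kidney and -0.23, 0.25 and -0.30 between tissues. Different-number correlations ran from -0.60 to 0.52 in kidney and from -0.31 to 0.33 between tissues. With so few libraries these values cannot decide whether the numbers pair the libraries. With the replicate block, kidney had 0 calls and the tissue comparison 7738 instead of 9171, with 10 members called. The high salt liver columns carry no number of a title, so the liver diet had no such fit. Counting error is largest for kidney Pparg, which has the fewest counts of the members, 10 to 29 per library.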
